A study of Homo sapiens with 12 samples.

Results

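The antisense oligo against LINE1 RNA (ASO-L1) was compared with the sense oligo of the same element (sO-L1) in H9, an established line of human embryonic stem cells, across all expressed genes. Members were the libraries whose titles name either oligo, 4 per group and 8 of the 12 libraries of the study. The remaining 4 libraries received a fluorescein-labelled oligo without a specific target (ASO-Ctr). They entered the model as a further group and are otherwise given only beside the other 2. Cells of every group were kept in RSeT medium, which is meant to hold them in a naive state, and received 25 nM of a 6-FAM labelled oligo by lipofection. All groups also had 0.7 uM Trans-ISRIB, an inhibitor of the integrated stress response, 5 uM of the caspase inhibitor emricasan and 10 uM of the ROCK inhibitor Y-27632 until 24 h. FAM-positive cells were sorted at 48 h, so each library comes from cells that took up oligo. All libraries come from 1 cell line. The labels do not say whether the replicates were separate cultures, so p-values measure the spread between these libraries only. The study asked how LINE1 bears on genes of the 8-cell stage, per its design text.

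LINE1 elements are retrotransposons that copy themselves through RNA, and their RNA is abundant in early embryos and naive stem cells. In mouse embryonic stem cells, LINE1 RNA is known to act with nucleolin and TRIM28 in ribosomal RNA synthesis and in silencing of the Dux program. An antisense oligo pairs with the target RNA, whereas a sense oligo has the sequence of that RNA and could pair only with RNA read from the other strand. A sense oligo therefore serves as a control for delivery, chemistry and sorting. The count table has no entry for LINE1, so its own level was not analysed here.

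Reads counted in genes ranged from 27352147 to 40761200 per library in ASO-L1 and from 31058999 to 55056032 in sO-L1. Between 5.59 and 6.48% of the reads in these 8 libraries came from mitochondrially encoded genes. The stem cell markers POU5F1 (1161 to 1305 CPM, read counts scaled to library size with TMM factors), NANOG (121 to 151 CPM) and SOX2 (393 to 472 CPM) were present in all 8. Neither POU5F1 (log2 fold change 0.05, adjusted p = 0.353) nor NANOG (0.06, adjusted p = 0.275) passed the test. POU5F1 was called higher in 2 of 21 other settings, without ASO-L1 replicate 1 and without all libraries of number 1. Its log2 fold change was at most 0.12 in any setting. SOX2 was lower by a small step (-0.11, adjusted p = 0.0256, not called in 10 of 21 other settings). Among the other stem cell markers examined, LIN28A was lower (-0.14, adjusted p = 0.0039) and DPPA4 higher (0.15, adjusted p = 0.00578). SALL4 (-0.04) and TDGF1 (-0.05) did not pass the test. Library 1 of each group stood apart for many genes, and values without replicate number 1 are given for some of the results that they change.

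ASO-L1 and sO-L1 differed in a large part of the expressed genes, mostly by small steps. Of 17264 genes tested, 7602 (44%) were called at an adjusted p under 0.05, by edgeR's quasi-likelihood test with Benjamini-Hochberg adjustment over all genes, which is the source of every adjusted p below. In ASO-L1, 3644 genes (21.1%) were higher and 3958 (22.9%) lower. Counts called in the gene lists below are to be read beside these shares of all genes. Called genes moved by a median of 0.37 in log2 units, and 3178 of the called genes (41.8%) moved by less than 0.32, also on that scale. Changes over 2-fold were called for 395 genes upward (2.29% of genes tested) and 267 downward (1.55%). Beyond 4-fold the split was uneven, with 53 genes higher and 3 lower. The median over all genes tested was -0.00, which scaling the libraries to a common level largely sets.

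**Figure D1:**
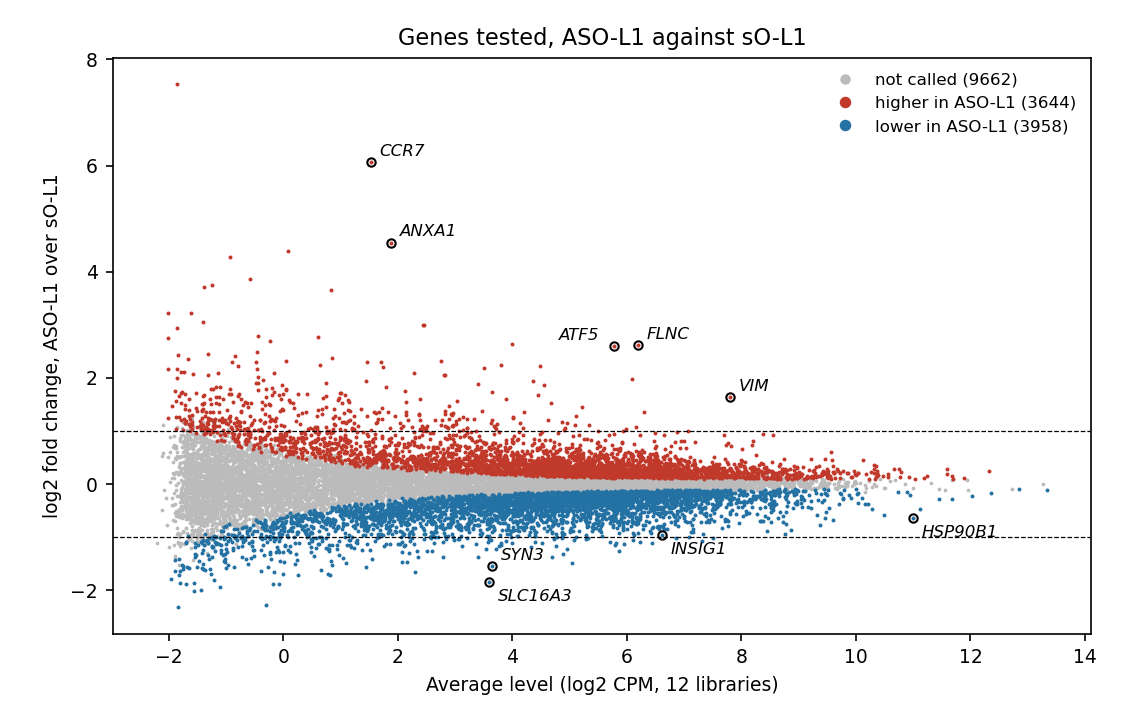
Each point is 1 of 17264 genes, with the average level over 12 libraries (log2 CPM) on the x axis and the log2 fold change of ASO-L1 over sO-L1 on the y axis. Dashed lines mark 2-fold, and the largest changes were upward, with 53 genes over 4-fold higher against 3 lower.

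The direction of most calls recurred in every replicate number. Within the 4 numbers, 7108 of the called genes (93.5%) differed in the same direction in all 4, as did 9152 of all genes tested (53%). The model pairs libraries by number, so its calls favour such genes, and the share among them is a description. The CPM of the groups did not overlap in 5203 of the called genes (68.4%) and in 5543 of all genes tested (32.1%). The size of the difference varied with the replicate number. Its median over called genes was 0.52 in number 1, 0.33 in number 2, 0.35 in number 3 and 0.26 in number 4, on the log2 scale of the difference between libraries of the same number. Without ASO-L1 replicate 1, 7472 genes were called, and without all libraries of number 1, 7491. Where no other setting is given for a called gene below, its call was absent in at most 2 of the 20 or 21 other settings in which it was tested.

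The largest rises among genes at an average log2 CPM of at least 1 included a chemokine receptor, an annexin and a small heat shock protein. CCR7, the chemokine receptor of lymphocyte homing, was at 18, 5.41, 8.63 and 3.88 CPM in ASO-L1 and at 0.115, 0.125, 0.176 and 0.0655 in sO-L1. The lowest ASO-L1 library stood far above the highest sO-L1 library, and the sO-L1 group held 19 CCR7 reads in all, against 1108 in ASO-L1 (log2 fold change 6.06 ± 0.29 (SE), adjusted p = 9.62e-10). ANXA1, a membrane-binding annexin, was at 20.9, 9.43, 8.69 and 4.61 CPM in ASO-L1 and at 0.516, 0.445, 0.324 and 0.491 in sO-L1 (log2 fold change 4.55 ± 0.22 (SE), adjusted p = 9.62e-10). HSPB8, a small heat shock protein of chaperone-assisted autophagy, was at 24.5, 11.3, 10.4 and 7.74 CPM in ASO-L1 and at 2.06, 1.67, 1.41 and 1.28 in sO-L1 (log2 fold change 2.99 ± 0.15 (SE), adjusted p = 9.62e-10). For ANXA1 and HSPB8 as well, the groups did not overlap, and replicate 1 of ASO-L1 was the highest library and replicate 4 the lowest of that group.

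FLNC, which crosslinks actin, was at 327, 142, 131 and 81.6 CPM in ASO-L1 and at 22.9, 25.2, 25.9 and 26.9 in sO-L1 (log2 fold change 2.61 ± 0.23 (SE), adjusted p = 2.34e-07). AHNAK, a giant scaffold protein under the membrane, was at 73.6, 31.2, 27.9 and 18.2 CPM in ASO-L1 and at 7.5, 6.41, 4.47 and 3.93 in sO-L1 (6.22-fold, adjusted p = 8.69e-09). In both genes every ASO-L1 library stood above every sO-L1 library, and the sO-L1 libraries of FLNC lay close together. The neuropeptide precursor VGF (2.32, adjusted p = 2.88e-07), the CREB-family factor CREB5 (2.30, adjusted p = 7.79e-07) and the AP-1 subunit FOSL1 (2.30, adjusted p = 2.70e-08) were also among the largest rises of genes at an average log2 CPM of at least 1. ATF5, also among them, is described with the stress factors.

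**Figure D2:**
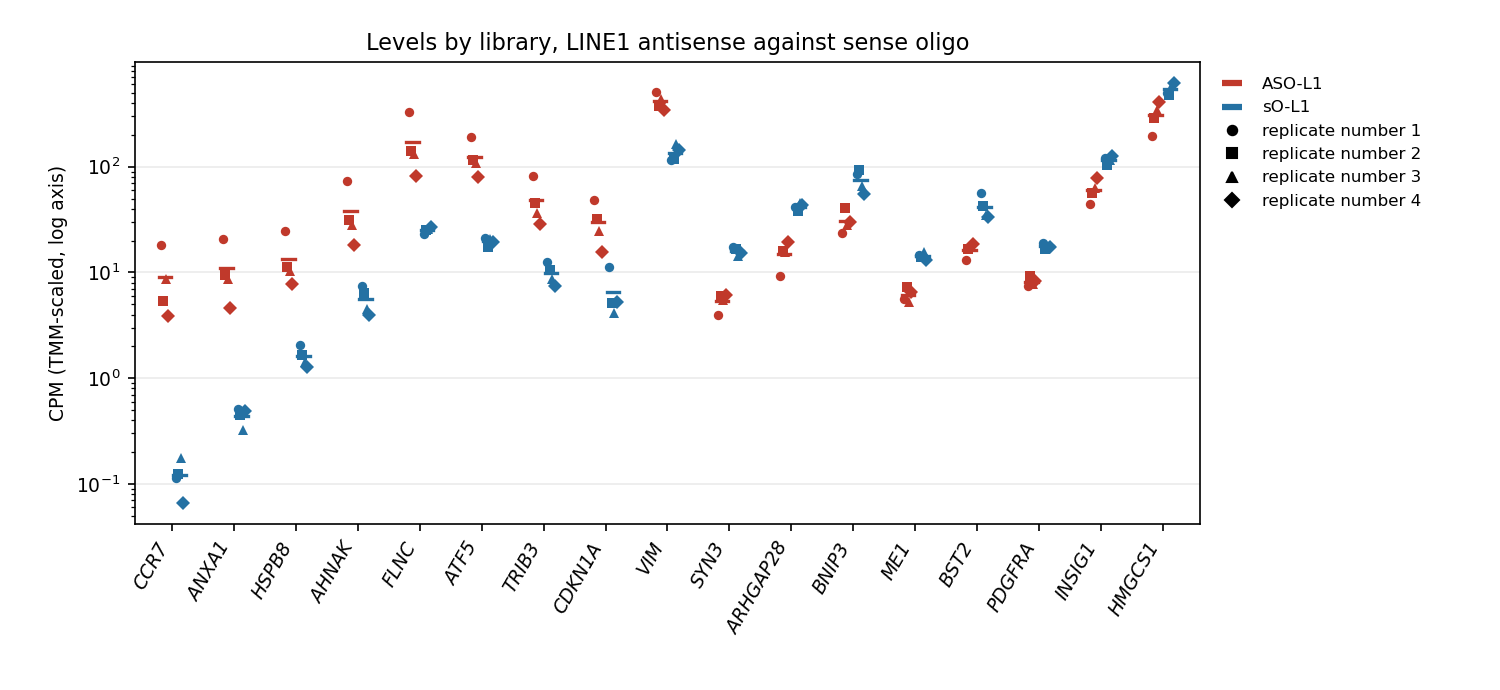
CPM per library (log axis) for 17 genes, red for ASO-L1 and blue for sO-L1, with marker shapes for the replicate number and bars for group means. ASO-L1 replicate 1 was the highest library for each of the 9 genes on the left, and the groups did not overlap in any gene shown.

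Among genes at an average log2 CPM of at least 1, the largest falls were smaller than the largest rises. SLC16A3, the lactate exporter that hypoxia induces, was at 3.46, 7.23, 2.71 and 3.07 CPM in ASO-L1 and at 19.1, 33.4, 8.21 and 5.2 in sO-L1 (log2 fold change -1.85 ± 0.20 (SE), adjusted p = 2.01e-06). Its groups overlapped, since sO-L1 replicate 4 lay below ASO-L1 replicate 2, and within each replicate number ASO-L1 was the lower library. SYN3, a synapsin of synaptic vesicles, was at 4.0, 5.97, 5.46 and 6.11 CPM in ASO-L1 and at 17.6, 16.6, 14.2 and 15.3 in sO-L1 (log2 fold change -1.55 ± 0.12 (SE), adjusted p = 4.72e-08). ARHGAP28, a GTPase activating protein, was at 9.3, 15.9, 15.7 and 19.2 CPM in ASO-L1 and at 41.2, 37.9, 44.9 and 43.6 in sO-L1 (log2 fold change -1.48 ± 0.11 (SE), adjusted p = 3.41e-08). For SYN3 and ARHGAP28 the groups did not overlap, and ASO-L1 replicate 1 was the lowest library. The long noncoding RNA LINC00698 (-1.66, adjusted p = 2.15e-08), TMEM179 (-1.56, adjusted p = 4.53e-07), FRMPD4 (-1.48, adjusted p = 2.85e-05), the zinc finger gene ZNF66 (-1.47, adjusted p = 1.16e-06), the myosin MYH7B (-1.47, adjusted p = 8.15e-08), the phosphatase PTPN3 (-1.41, adjusted p = 3.87e-06) and the mitochondrial carrier SLC25A21 (-1.40, adjusted p = 4.59e-05) made up the rest of the 10 largest falls at that level. Larger falls were called in genes at lower levels, among them SLC8A1, which is described with the long genes.

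Transcription factors and regulators of the ATF4 branch rose almost as a group. ATF4 is the factor that the integrated stress response and other stresses raise through translation, and Trans-ISRIB acts upstream of that step. Of 15 listed regulators, 13 passed the filter on low counts, 12 were higher and 1 was lower, with a median log2 fold change of 1.12 against -0.00 over all genes. The 2 below the filter together held 53 reads in ASO-L1 and 43 in sO-L1. ATF5, a close relative of ATF4, was at 191, 115, 109 and 80.6 CPM in ASO-L1 and at 21.1, 17.6, 20.9 and 19.4 in sO-L1 (log2 fold change 2.60 ± 0.13 (SE), adjusted p = 9.62e-10). TRIB3, a pseudokinase that dampens the branch, was at 81, 45.6, 36.3 and 29 CPM in ASO-L1 and at 12.5, 10.4, 8.76 and 7.5 in sO-L1 (log2 fold change 2.22 ± 0.11 (SE), adjusted p = 9.62e-10). Replicate 1 of ASO-L1 was highest in both, and the groups did not overlap. ATF3 was at 65.9, 43.1, 43.9 and 31.2 CPM in ASO-L1 and at 12.7, 12.1, 12.5 and 11.7 in sO-L1 (3.67-fold), and the sO-L1 libraries differed little among themselves.

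DDIT3, the death-linked factor CHOP, rose 4.56-fold (adjusted p = 1.56e-08), the secreted stress hormone GDF15 4.74-fold (7.24e-06) and SESN2, an inhibitor of mTORC1 signalling, 2.17-fold (2.06e-09). ATF4 itself moved less. Its mRNA was at 420.1, 376, 374 and 353 CPM in ASO-L1 and at 285, 255, 256 and 252 in sO-L1 (log2 fold change 0.54 ± 0.04 (SE), adjusted p = 3.58e-08), without overlap. DDIT4, another mTORC1 inhibitor, was the exception, at 37.7, 25.1, 18.8 and 20.7 CPM in ASO-L1 and at 64.9, 31.9, 19.8 and 21.8 in sO-L1. Its libraries overlapped and spread widely with the replicate number (log2 fold change -0.33, adjusted p = 0.0278), and the call was absent in 7 of 21 other settings. In replicate numbers 1 to 4 the median of the list was 1.52, 1.15, 1.01 and 0.75, and without all libraries of number 1 the fitted median was 1.04 with 12 called higher.

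The upstream sequences of 3 of these genes and of ASNS are printed because they hold the letters TGATGNAA, the composite element that ATF4 pairs with C/EBP factors read. Each run is the 250 bases before the RefSeq start in GRCh38.p14, 5′ to 3′ on the strand of the gene, with the match in capitals on either strand.
ATF3, chr1:212565157-212565406 (plus strand): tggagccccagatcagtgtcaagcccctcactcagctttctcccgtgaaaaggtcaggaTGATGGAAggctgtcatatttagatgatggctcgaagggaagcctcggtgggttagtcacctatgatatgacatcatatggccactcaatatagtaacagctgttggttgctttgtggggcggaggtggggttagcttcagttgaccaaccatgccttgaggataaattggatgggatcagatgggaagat
CEBPG, chr19:33373863-33374112 (plus strand): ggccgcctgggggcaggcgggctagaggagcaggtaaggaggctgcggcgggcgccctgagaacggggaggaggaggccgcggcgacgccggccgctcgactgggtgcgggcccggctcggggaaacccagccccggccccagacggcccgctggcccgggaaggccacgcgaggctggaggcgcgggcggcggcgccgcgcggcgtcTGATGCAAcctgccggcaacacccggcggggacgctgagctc
CHAC1, chr15:40953221-40953470 (plus strand): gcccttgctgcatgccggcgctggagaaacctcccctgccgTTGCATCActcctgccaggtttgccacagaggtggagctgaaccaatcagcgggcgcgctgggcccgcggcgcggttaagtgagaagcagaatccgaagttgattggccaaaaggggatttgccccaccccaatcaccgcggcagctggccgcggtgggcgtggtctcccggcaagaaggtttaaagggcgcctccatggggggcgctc
ASNS, chr7:97872409-97872658 (minus strand): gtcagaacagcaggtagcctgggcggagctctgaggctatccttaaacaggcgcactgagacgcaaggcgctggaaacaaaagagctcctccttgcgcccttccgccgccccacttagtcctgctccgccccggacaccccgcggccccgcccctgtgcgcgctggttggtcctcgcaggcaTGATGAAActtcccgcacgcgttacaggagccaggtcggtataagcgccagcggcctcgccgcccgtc
The match lay 191 bases before the start in ATF3, 42 in CEBPG, 209 in CHAC1 and 68 in ASNS, counted to its most upstream base. In all, 4 of 14 regulators with an entry held it in any listed promoter (28.6%), against 3.89% of 27305 genes in RefSeq, with promoters of the same length. The 4 were ATF3, CEBPG, CHAC1 and FGF21. Among amino acid synthesis and one-carbon enzymes with an entry, 2 of 10 held it (20%). Among amino acid transporters with an entry it was 1 of 12 (8.33%). A match is a description of letters and shows no binding. CEBPG, a dimer partner of ATF4, was at 199.8, 138, 140.2 and 120.5 CPM in ASO-L1 and at 92.5, 85.3, 89.3 and 91.7 in sO-L1 (log2 fold change 0.72 ± 0.09 (SE), adjusted p = 4.66e-06). CHAC1, a glutathione-degrading enzyme, was at 40.2, 32, 22.3 and 20.2 CPM in ASO-L1 and at 29, 20.6, 15.9 and 14.7 in sO-L1, and its groups overlapped although ASO-L1 was higher within every replicate number (log2 fold change 0.52 ± 0.06 (SE), adjusted p = 3.90e-06). ASNS, asparagine synthetase and a classic ATF4 target, was at 144, 136, 116 and 111 CPM in ASO-L1 and at 145, 122, 109 and 112 in sO-L1, and it did not pass the test (log2 fold change 0.06 ± 0.05 (SE), adjusted p = 0.351).

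Metabolic genes usually counted as ATF4 targets did not follow the regulators. Among 15 enzymes of amino acid synthesis and one-carbon metabolism, 4 were higher and 5 lower, with a median of -0.00. MTHFD2, a mitochondrial folate enzyme, was at 486, 371, 378 and 347 CPM in ASO-L1 and at 329, 278, 289.6 and 291 in sO-L1 (log2 fold change 0.41 ± 0.05 (SE), adjusted p = 1.31e-05). PSAT1 (0.24), PSPH (0.22) and GPT2 (0.16) rose by smaller log2 steps, while CTH, which makes cysteine, fell (-0.49, adjusted p = 1.10e-04). ALDH1L2 (-0.24), PYCR1 (-0.23), PCK2 (-0.20) and SHMT1 (-0.15) were also lower, each by less than 0.32 on the log2 scale and each not called in 4 to 10 of 21 other settings. The share of the list called lower, 33.3%, stood beside 22.9% of all genes, and 2 to 3 were called lower without sO-L1 replicate 1 or 3 or any 1 replicate number.

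Of 14 amino acid transporters, 6 were higher and 3 lower (median 0.10). SLC3A2, the heavy chain shared by several transporters, was at 651, 442, 485 and 408 CPM in ASO-L1 and at 271, 247, 255 and 251 in sO-L1 (log2 fold change 0.94 ± 0.07 (SE), adjusted p = 4.72e-08), and the groups did not overlap. SLC7A1, an arginine and lysine carrier, was higher (0.51, adjusted p = 1.07e-05), whereas SLC36A4 (-0.66, adjusted p = 1.29e-07), SLC38A1 (-0.29, adjusted p = 1.66e-05) and SLC38A10 (-0.31, adjusted p = 4.21e-04) were lower. The cystine transporter SLC7A11 was at a log2 fold change of -0.02 (adjusted p = 0.84). Among 20 cytosolic aminoacyl-tRNA synthetases, 10 were higher and 4 lower (median 0.09). CARS (0.36, adjusted p = 3.89e-06) and AARS (0.29, adjusted p = 5.91e-06) rose, and DARS (-0.49, adjusted p = 1.83e-06), TARS (-0.45, adjusted p = 3.16e-06), SARS (-0.44, adjusted p = 1.29e-04) and LARS (-0.28, adjusted p = 4.91e-05) fell. The number called higher was 6 without the replicate block, without replicate 2 of either group and without ASO-L1 replicate 4.

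Chaperones of the endoplasmic reticulum were more often lower than higher. Of 22 members tested, 11 were lower and 3 higher, with a median of -0.17. The number lower was 15 without ASO-L1 replicate 1 and 14 without all libraries of number 1. HSP90B1 was at 1119, 1601, 1603 and 1722 CPM in ASO-L1 and at 2178, 2393, 2410.4 and 2353 in sO-L1 (log2 fold change -0.64 ± 0.06 (SE), adjusted p = 3.09e-07). HSPA5, the lumenal Hsp70 known as BiP, was at 868, 1039.7, 1023 and 1038 CPM in ASO-L1 and at 1259, 1370.4, 1310.4 and 1211 in sO-L1 (log2 fold change -0.38 ± 0.04 (SE), adjusted p = 3.34e-06). In both, ASO-L1 replicate 1 was the lowest library and all ASO-L1 libraries stood below sO-L1. PDIA4 (-0.41, adjusted p = 4.52e-05) and MANF (-0.30, adjusted p = 1.33e-04) fell too, whereas ERO1L (0.40, adjusted p = 6.92e-04) and HERPUD1 (0.24, adjusted p = 0.00408) rose. The stress sensor ERN1 was called higher (0.50, adjusted p = 0.034), but not in 10 of 21 other settings.

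Cytosolic heat shock genes showed no common direction, with 9 of 20 higher (45%) and 5 lower (25%), at a median of 0.10. Apart from HSPB8, the called rises were small, as in DNAJA1 (0.23, adjusted p = 6.96e-04). HSPA2 was at 14.6, 15.4, 14.5 and 15.7 CPM in ASO-L1 and at 29.4, 25.3, 22.2 and 19.8 in sO-L1 (log2 fold change -0.67 ± 0.09 (SE), adjusted p = 1.44e-05), below sO-L1 in every library. The inducible pair HSPA1A (-0.21) and HSPA1B (-0.19), near-identical copies whose reads may be shared, was lower by less than 0.32 on the log2 scale, as was DNAJB1 (-0.17). These 3 calls were absent in 11 of 21, 5 of 21 and 7 of 21 other settings. Lower HSPA4L (-0.60, adjusted p = 8.15e-05) completed the falls, of which 3 were called without sO-L1 replicate 2, 3 or 4. Of 18 NRF2 antioxidant genes, 7 were higher (38.9%) and 6 lower (33.3%). These counts rest on single libraries, since 4 were higher without replicate 3 of either group or without sO-L1 replicate 4, and 3 were lower without sO-L1 replicate 1. The ferritin chains FTL (0.61, adjusted p = 2.34e-07) and FTH1 (0.38, adjusted p = 3.27e-06) and heme oxygenase HMOX1 (0.91, adjusted p = 2.17e-06) were higher, as was OSGIN1 (0.91, adjusted p = 0.0264, not called in 10 of 20 other settings). ME1, a NADPH-making malic enzyme, was at 5.62, 7.23, 5.22 and 6.49 CPM in ASO-L1 and at 14.7, 13.9, 15.7 and 13.1 in sO-L1 (log2 fold change -1.21 ± 0.10 (SE), adjusted p = 1.01e-07).

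Genes that p53 activates were mostly higher. Of 29 tested, 21 rose and 1 fell, with a median of 0.47, and 21 were called higher without all libraries of replicate number 1. CDKN1A, the cell cycle inhibitor p21, was at 48.8, 31.7, 24.9 and 15.8 CPM in ASO-L1 and at 11.3, 5.16, 4.15 and 5.3 in sO-L1 (log2 fold change 2.24 ± 0.13 (SE), adjusted p = 6.38e-09). PHLDA3, an AKT inhibitor, was at 99.98, 64.3, 53.4 and 47.4 CPM in ASO-L1 and at 30, 23, 20.2 and 20.9 in sO-L1 (log2 fold change 1.46 ± 0.07 (SE), adjusted p = 9.62e-10). Both groups were highest in replicate number 1, and they did not overlap in either gene. The kinase PLK3 rose 2.78-fold. The growth arrest gene GADD45A (1.94), the death receptor FAS (1.67), the pro-death BBC3 (1.15) and MDM2 (0.98), which degrades p53, were higher as well. PMAIP1, known as NOXA, was lower (-0.19, adjusted p = 0.00109), and TP53I3 (-0.01) and CCNG1 (-0.03) were not called.

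AP-1 subunits and early response genes were higher in 16 of 22 tested and lower in 2 (median 0.57). FOSL2 was at 22.9, 18.6, 22.5 and 17.3 CPM in ASO-L1 and at 4.32, 5.38, 6.26 and 5.96 in sO-L1 (log2 fold change 1.89 ± 0.11 (SE), adjusted p = 5.76e-09). JUN was at 149.6, 127, 146 and 117 CPM in ASO-L1 and at 65.4, 63.8, 72.6 and 74.3 in sO-L1 (log2 fold change 0.97 ± 0.07 (SE), adjusted p = 3.09e-08). The groups did not overlap in FOSL2 or JUN. FOS (-0.17), FOSB (0.20) and JUNB (0.06) did not pass the test, with adjusted p of 0.0879, 0.64 and 0.647. EGR1, the early gene that growth factors induce, was at 1.37, 2.06, 4.06 and 5.01 CPM in ASO-L1 and at 2.55, 2.14, 6.21 and 8.22 in sO-L1 (-0.55, adjusted p = 0.0149). It varied more between replicate numbers than between the oligos, and its call was absent in 5 of 21 other settings. BTG1 was also called lower (-0.19, adjusted p = 0.0138), but not in 5 of 21 other settings.

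Genes of actin linkage, adhesion and YAP or SRF control were higher in 20 of 31 and lower in 3 (median 0.25). The actin-binding TAGLN was at 25.5, 21.6, 30.7 and 26.6 CPM in ASO-L1 and at 8.76, 5.91, 9.94 and 10.3 in sO-L1 (log2 fold change 1.6 ± 0.08 (SE), adjusted p = 9.62e-10), with no overlap. TAGLN2 rose 1.71-fold (adjusted p = 2.70e-08), and the YAP target ANKRD1 had a log2 fold change of 3.86 (adjusted p = 2.24e-06) at an average level under 1 CPM. The filamin FLNA (0.08, adjusted p = 0.051) was not called beside FLNC. TLN1, which links integrins to actin (-0.35, adjusted p = 4.60e-06), and the actin crosslinker ACTN4 (-0.18, adjusted p = 0.0127, not called in 3 of 21 other settings) were lower. TPM4 was called lower (-0.11, adjusted p = 0.038) but lost the call in 13 of 21 other settings. Of these 3, 1 was called without replicate 1 or 2 of sO-L1.

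Intermediate filament genes were higher in 7 of 16 and lower in 3 (median 0.18). VIM, vimentin, was at 509.7, 371, 437 and 343 CPM in ASO-L1 and at 115, 118, 163 and 143 in sO-L1 (log2 fold change 1.64 ± 0.11 (SE), adjusted p = 2.41e-08). LMNA, lamin A/C, was at 101, 67.7, 74.7 and 60.9 CPM in ASO-L1 and at 43.7, 37, 38.9 and 38.3 in sO-L1 (log2 fold change 0.93 ± 0.07 (SE), adjusted p = 3.45e-08). Both were without overlap, and the B-type lamins LMNB1 (0.04) and LMNB2 (0.03) did not pass the test. NEFM (-0.72, adjusted p = 7.89e-05), INA (-0.20, adjusted p = 0.00536) and DES (-0.76, adjusted p = 0.0197, not called in 7 of 20 other settings), filament genes of neurons and muscle, were lower. Among 14 annexins and S100 genes, 5 were higher (35.7%) and 2 lower (median 0.06), and 3 were higher without replicate 2 of either group. ANXA3 was at 37.2, 21.5, 27 and 21.4 CPM in ASO-L1 and at 12.4, 7.81, 12 and 12.7 in sO-L1 (log2 fold change 1.26 ± 0.12 (SE), adjusted p = 5.98e-07), and ANXA6 was at 66.8, 96.3, 96.4 and 114 CPM in ASO-L1 and at 155, 144, 154 and 146 in sO-L1 (log2 fold change -0.69 ± 0.09 (SE), adjusted p = 1.37e-05). These annexins moved in opposite directions, each without overlap. Besides ANXA1, smaller rises were called in S100A11 (0.29, adjusted p = 8.59e-05) and ANXA5 (0.16, adjusted p = 0.0137, not called in 3 of 21 other settings), and S100A10 was lower (-0.19, adjusted p = 0.00678). S100A4 was called higher (0.60, adjusted p = 0.0449), but not in 16 of 20 other settings.

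Genes of cholesterol synthesis and uptake fell nearly without exception. SREBP2, encoded by SREBF2, is the factor that turns on this pathway when sterols are low. None of 25 was higher and 23 were lower (92%), with a median of -0.55, and 23 were still called lower without all libraries of replicate number 1 (median -0.43). HMGCS1, which makes HMG-CoA, was at 193, 289, 347 and 405 CPM in ASO-L1 and at 496, 472, 596 and 618 in sO-L1 (log2 fold change -0.85 ± 0.08 (SE), adjusted p = 6.09e-07). INSIG1, the sterol sensor partner that is itself a target, was at 44.3, 56.9, 62.9 and 78.6 CPM in ASO-L1 and at 122, 103, 115 and 125 in sO-L1 (log2 fold change -0.95 ± 0.09 (SE), adjusted p = 3.40e-07). In both genes ASO-L1 replicate 1 was lowest and replicate 4 highest of the ASO-L1 group, and all 4 were below sO-L1.

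MSMO1, an enzyme of sterol demethylation (-0.71, adjusted p = 3.23e-07), and STARD4, a sterol carrier (-0.69, adjusted p = 3.41e-08), fell by similar log2 steps. PMVK (-0.03) and CYP51A1 (-0.08) were the 2 members not called. SREBF2 was at 275, 326, 327 and 344 CPM in ASO-L1 and at 405, 418, 397 and 389 in sO-L1 (log2 fold change -0.34 ± 0.06 (SE), adjusted p = 1.24e-04), without overlap. Its upstream bases are printed because they hold TCACNCCAC, the sterol element that SREBP reads, in capitals (same source and length as above, match on either strand, first base 133 bases before the start).
SREBF2, chr22:41832855-41833104 (plus strand): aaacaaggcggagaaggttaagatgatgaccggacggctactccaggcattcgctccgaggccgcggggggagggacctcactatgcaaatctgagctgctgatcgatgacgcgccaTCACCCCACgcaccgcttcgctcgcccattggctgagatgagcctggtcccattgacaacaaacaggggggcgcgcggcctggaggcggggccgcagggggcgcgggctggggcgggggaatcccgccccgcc
It was the only 1 of 18 cholesterol genes with an entry that held these letters (5.56%), against 1.09% of all genes with an entry. Of the fatty acid synthesis genes below, 0 of 11 with an entry held them.

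Of 12 fatty acid synthesis genes, 11 were lower and none higher (median -0.44). SCD, the stearoyl-CoA desaturase, was at 823, 1085, 1154 and 1262 CPM in ASO-L1 and at 1530.0, 1597, 1638 and 1611 in sO-L1 (log2 fold change -0.57 ± 0.06 (SE), adjusted p = 2.14e-06). ELOVL6, a fatty acid elongase, was at 113, 158, 165 and 175 CPM in ASO-L1 and at 227, 245, 241 and 249 in sO-L1 (log2 fold change -0.67 ± 0.06 (SE), adjusted p = 4.53e-07). Neither gene overlapped between the groups. SREBF1 (-0.37, adjusted p = 2.35e-06) and ACSL3 (-0.36, adjusted p = 2.78e-06) fell less, and SCD5 (0.69, adjusted p = 0.179) was the member not called.

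Glycolysis genes and hypoxia targets were lower in 16 of 33 and higher in 5 (median -0.23). The mitophagy receptors BNIP3, at 23.7, 40.8, 28.1 and 30.2 CPM in ASO-L1 and at 84.6, 93.1, 66 and 55.4 in sO-L1 (log2 fold change -1.27 ± 0.11 (SE), adjusted p = 1.14e-07), and BNIP3L, at 32.3, 44.6, 41.1 and 47.6 CPM in ASO-L1 and at 86.8, 93.7, 83.3 and 78.7 in sO-L1 (log2 fold change -1.05 ± 0.08 (SE), adjusted p = 4.32e-08), fell without overlap. PDK1, a pyruvate dehydrogenase kinase, was at 38.9, 51.3, 40 and 44.8 CPM in ASO-L1 and at 101, 100.05, 74.1 and 69.8 in sO-L1 (log2 fold change -0.96 ± 0.09 (SE), adjusted p = 2.19e-07). The histone demethylase KDM3A was also lower (-0.54, adjusted p = 3.57e-07). SLC2A3, a glucose transporter, went the other way at 697, 666, 809.9 and 720.3 CPM in ASO-L1 and at 535, 514, 530.0 and 509 in sO-L1 (log2 fold change 0.47 ± 0.04 (SE), adjusted p = 4.61e-07), and ENO2 (0.25), VEGFA (0.27), ADM (0.42) and GAPDH (0.14) were higher by smaller log2 steps, the last of them not called in 11 of 21 other settings. The median within replicate numbers 1 to 4 was -0.37, -0.25, -0.04 and 0.04, and without number 1 the fitted median was -0.08, with 15 called lower. The number lower was 12 without sO-L1 replicate 1 and 11 without the replicate block. It ranged from 11 to 18 without single libraries or numbers.

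Of 13 mitochondrially encoded genes, 5 were lower (38.5%) and 1 higher (7.69%), with a median of -0.09. MT-CYB had the smallest adjusted p (-0.21, adjusted p = 6.42e-05). MT-ATP6 (-0.16, adjusted p = 5.78e-04) was lower as well. MT-ND6 (-0.18, adjusted p = 0.00748), MT-CO1 (-0.10, adjusted p = 0.0143) and MT-CO3 (-0.09, adjusted p = 0.032) were the other genes called lower, but not in 4 of 21, 4 of 21 and 11 of 21 other settings. The number lower was 2 without sO-L1 replicate 4 or all libraries of number 2 or 4, and 8 without number 1. MT-ND1 was the higher one (0.18, adjusted p = 0.0258, not called in 9 of 21 other settings). Nuclear subunits of oxidative phosphorylation were higher in 24 of 77 (31.2%) and lower in 7 (9.09%), with a median of 0.08. The number higher was 40 without replicate number 1, 37 without ASO-L1 replicate 1 and 13 without replicate number 3, and 4 were lower without sO-L1 replicate 1. ATP5B (0.34, adjusted p = 1.48e-06), NDUFS7 (0.54, adjusted p = 1.80e-06) and NDUFB10 (0.38, adjusted p = 2.88e-06) rose, and SDHD fell (-0.53, adjusted p = 2.00e-06).

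Most genes of ribosome assembly and most ribosomal protein genes were higher, by small steps. Of 56 genes of RNA polymerase I and ribosome assembly, 41 were higher (73.2%) and 4 lower, and 11 did not pass the test. The number higher ranged from 30 to 43 without single libraries or numbers and was 33 without the replicate block. Log2 fold changes ran from -0.50 to 0.60, with a median of 0.19 that lay between 0.17 and 0.22 in the 4 replicate numbers. RRP12, an assembly factor, was at 156, 128, 137 and 127 CPM in ASO-L1 and at 86, 90, 93.9 and 90.4 in sO-L1 (log2 fold change 0.60 ± 0.05 (SE), adjusted p = 2.80e-07). POLR1B, which encodes a large catalytic subunit of RNA polymerase I, was at 144, 135, 150.2 and 139 CPM in ASO-L1 and at 99.8, 98.3, 100.3 and 109 in sO-L1 (log2 fold change 0.48 ± 0.05 (SE), adjusted p = 8.53e-07). Neither overlapped between groups. RRP1 rose as well (0.45, adjusted p = 1.82e-06), and NCL, nucleolin, by a small step (0.15, adjusted p = 0.0012). UTP20 was at 89.6, 114, 104 and 120.3 CPM in ASO-L1 and at 131, 148, 165 and 160.4 in sO-L1 (log2 fold change -0.50 ± 0.05 (SE), adjusted p = 4.89e-07), and HEATR1 (-0.33, adjusted p = 2.15e-05), DDX21 (-0.29, adjusted p = 1.06e-05) and GNL2 (-0.20, adjusted p = 0.00747) were the other members that fell.

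Cytosolic ribosomal protein genes were higher in 57 of 79 (72.2%) and lower in 3, and 19 did not pass the test (median 0.20). The median in replicate numbers 1 to 4 was 0.09, 0.25, 0.22 and 0.19. The number called higher was 72 without ASO-L1 replicate 1, 71 without all libraries of number 1 and 43 without the replicate block. Reads of their many processed pseudogenes make single values uncertain. RPLP1 was at 961, 884, 883 and 878 CPM in ASO-L1 and at 778, 678, 683 and 699.9 in sO-L1 (log2 fold change 0.35 ± 0.04 (SE), adjusted p = 1.46e-06). RPL28 (0.32) and RPL8 (0.29) rose by similar log2 steps, whereas RPL26 (-0.31, adjusted p = 7.73e-04), RPL3 (-0.21, adjusted p = 0.00569) and RPL12 (-0.23, adjusted p = 0.00689) fell. Numbered host genes of small nucleolar RNAs, a group chosen after values were seen, were higher in 11 of 13 and lower in 1 (median 0.56). SNHG1 was at 842, 516, 502 and 405 CPM in ASO-L1 and at 306, 291, 280.2 and 281 in sO-L1 (log2 fold change 0.93 ± 0.11 (SE), adjusted p = 2.90e-06), and GAS5, a further host gene outside the numbered set, was at 451, 336, 321 and 280.4 CPM in ASO-L1 and at 229, 226, 201 and 215 in sO-L1 (log2 fold change 0.66 ± 0.07 (SE), adjusted p = 1.97e-06). For SNHG1 and GAS5 replicate 1 of ASO-L1 was highest and no libraries overlapped. SNHG14 was the lower one (log2 fold change -0.27).

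Most genes of the 8-cell stage, the subject of the study, did not pass the filter on low counts. Of 53 listed, 52 were in the table, 30 had no read in any library and 7 passed the filter, of which 2 were higher and 1 lower. The 45 below the filter together held 51 reads in ASO-L1 and 85 in sO-L1. The summed level of the list was 18.1 to 29.2 CPM in ASO-L1 and 17.8 to 28.8 in sO-L1. ZSCAN4 had 3 reads over all ASO-L1 libraries and 3 over sO-L1, and LEUTX and DUXA had 0 in both. TPRX1 had 8 reads in ASO-L1 against 24 in sO-L1, and KLF17 had 9 against 27. Single libraries changed the count higher, which was 1 without replicate 1 or 3 of either group or without ASO-L1 replicate 2. The called members were SNAI1 (0.79, adjusted p = 7.85e-05), SLC34A2 (0.83, adjusted p = 0.0442, not called in 10 of 20 other settings) and DPPA5, at 3.71, 4.03, 2.92 and 3.07 CPM in ASO-L1 and at 12.1, 7.97, 4.79 and 6.12 in sO-L1 (log2 fold change -1.11 ± 0.15 (SE), adjusted p = 2.25e-05). At these depths 3 reads correspond to 0.0534 to 0.108 CPM in the 8 libraries, and values under that are not detectable levels.

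Pluripotency genes were called in both directions. Of 23 core genes, 6 were higher (26.1%, against 21.1% of all genes) and 8 lower (34.8%, against 22.9%), with a median of -0.00. TERF1, a telomere protein, was at 461, 589, 490.2 and 529.9 CPM in ASO-L1 and at 819, 863, 743 and 791 in sO-L1 (log2 fold change -0.64 ± 0.04 (SE), adjusted p = 2.62e-08). LEFTY1 (-0.45, adjusted p = 4.09e-05) and LEFTY2 (-0.28, adjusted p = 5.69e-04), inhibitors of Nodal signals, were lower, and FOXD3 was higher (0.59, adjusted p = 6.31e-05). L1TD1, a stem cell protein derived from LINE1 ORF1, was slightly lower (-0.14, adjusted p = 0.00351). Naive genes were higher in 8 of 19 (42.1%) and lower in 5 (26.3%), with a median of 0.12. Of these genes, 3 were lower without replicate 1 of either group and 5 higher without all libraries of number 2. KLF4 was at 59.4, 38.5, 48.3 and 43.9 CPM in ASO-L1 and at 22.8, 17.9, 25.7 and 25.1 in sO-L1 (log2 fold change 1.05 ± 0.08 (SE), adjusted p = 4.60e-08). KLF2 was at 7.5, 6.21, 7.11 and 5.42 CPM in ASO-L1 and at 3.84, 2.67, 2.38 and 3.04 in sO-L1 (log2 fold change 1.14 ± 0.12 (SE), adjusted p = 1.53e-06). The groups did not overlap in either KLF gene. FGF4 (-0.69, adjusted p = 4.47e-06), NLRP7 (-0.41, adjusted p = 1.59e-04), KHDC3L (-1.02, adjusted p = 0.0179) and MAEL (-0.93, adjusted p = 0.0113) fell, beside DPPA5. The calls of KHDC3L and MAEL were absent in 7 of 20 and 4 of 20 other settings. DPPA3 was called higher (0.18, adjusted p = 0.0276) but not in 9 of 21 other settings. Primed genes split evenly, with 8 of 21 higher and 8 lower. Their median was 0.05, and -0.01 without all libraries of number 1. VIM, given above with the intermediate filaments, was the largest rise of this list (1.64). ZIC2 was at 21, 18.5, 17.3 and 17 CPM in ASO-L1 and at 6.04, 7.14, 8.12 and 6.91 in sO-L1 (log2 fold change 1.39 ± 0.10 (SE), adjusted p = 2.88e-08), and the synaptic adhesion gene NLGN4X was at 28.6, 42.6, 35.9 and 40.8 CPM in ASO-L1 and at 61.2, 71.4, 63.7 and 63.4 in sO-L1 (log2 fold change -0.82 ± 0.07 (SE), adjusted p = 7.97e-08).

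Polycomb repressive complex 2 (PRC2) writes H3K27 methylation and is named in the study's title. Of 14 subunit genes tested, 3 were higher (21.4%, against 21.1% of all genes) and 2 lower (14.3%, against 22.9%), with a median of 0.03. EZH2, the enzyme, was at 74.3, 88.2, 86.7 and 94.9 CPM in ASO-L1 and at 103, 108, 114 and 113 in sO-L1 (log2 fold change -0.35 ± 0.05 (SE), adjusted p = 1.97e-05). EED was at 36, 34.3, 35.5 and 36.9 CPM in ASO-L1 and at 28.7, 31.3, 26.4 and 30.2 in sO-L1 (log2 fold change 0.29 ± 0.06 (SE), adjusted p = 7.45e-04). Both were without overlap and in opposite directions, whereas SUZ12 did not pass the test (0.03, adjusted p = 0.598). PHF1 was higher (0.29, adjusted p = 0.00199). C17orf96 was called higher (0.60, adjusted p = 0.0248) and RBBP4 lower (-0.13, adjusted p = 0.0194), but not in 9 of 20 and 7 of 21 other settings.

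Of 75 lineage factors that Polycomb commonly holds silent, 20 passed the filter, 11 were higher and 1 lower. The other 55 stayed below it, 8 of them without a read, and held 0.721 CPM at most. Together these 55 held 682 reads in ASO-L1 and 271 in sO-L1. Since a gene could pass through the ASO-L1 libraries alone, the count over those that passed leans upward. TWIST1, a mesenchymal factor, was at 7.79, 3.18, 2.99 and 1.59 CPM in ASO-L1 and at 0.859, 0.249, 0.559 and 0.589 in sO-L1 (log2 fold change 2.77 ± 0.26 (SE), adjusted p = 4.40e-07). GBX2, a neural plate factor, was at 0.937, 0.921, 0.584 and 0.753 CPM in ASO-L1 and at 0.0573, 0.0534, 0.206 and 0.327 in sO-L1, or 107 reads against 22 (adjusted p = 2.41e-04). Replicates 1 and 2 of sO-L1 held at most 3 GBX2 reads, and with these set at the level of 3 reads the mean of ASO-L1 was at least 4.75-fold higher. Neither gene overlapped, and both remained at low levels. MSX2 (1.64, adjusted p = 0.00377) and HOXB2 (0.87, adjusted p = 0.0176, not called in 3 of 20 other settings) were higher. PAX6 (0.87, adjusted p = 6.38e-04) and GATA2 (0.78, adjusted p = 0.00123) rose less, and PAX9 was called lower on few reads (11 against 43, adjusted p = 0.0377), but not in 9 of 17 other settings.

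Genes that silence or restrict transposons were lower in 11 of 30 (36.7%) and higher in 3 (10%), with a median of -0.02. Without the replicate block 7 were called lower, and without ASO-L1 replicate 1, 5 were called higher. SAMHD1, a dNTP hydrolase that restricts LINE1, was at 46, 59.3, 70.2 and 75.3 CPM in ASO-L1 and at 111, 107, 115 and 112 in sO-L1 (log2 fold change -0.84 ± 0.08 (SE), adjusted p = 7.60e-07). TEX15, a factor of piRNA-directed silencing in germ cells, was at 18.3, 20.2, 15.9 and 19 CPM in ASO-L1 and at 28.9, 30.8, 26.4 and 28.3 in sO-L1 (log2 fold change -0.64 ± 0.06 (SE), adjusted p = 3.36e-07). DNMT3B, a de novo DNA methyltransferase, was at 1568, 1932, 1680.5 and 1873 CPM in ASO-L1 and at 2553, 2555, 2349 and 2276 in sO-L1 (log2 fold change -0.46 ± 0.05 (SE), adjusted p = 2.51e-06). All 3 were below sO-L1 in every library. CBX1 was also lower (-0.31, adjusted p = 2.73e-05), while APOBEC3C (0.40, adjusted p = 8.05e-05), DAXX (0.15, adjusted p = 0.00641) and TRIM28 (0.13, adjusted p = 0.00718) were higher. Numbered ZNF genes, many of them KRAB zinc fingers that bind transposons, were higher in 153 of 447 (34.2%) and lower in 62 (13.9%), with a median of 0.11. The median of these ZNF genes was 0.28, 0.13, 0.08 and -0.01 in replicate numbers 1 to 4. Without ASO-L1 replicate 1 the fitted median was 0.07. This family was chosen after values were seen.

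Interferon and nucleic acid sensing genes were lower in 11 of 31 (35.5%) and higher in 4 (12.9%), with a median of -0.09. The sign of the median is not stable, since it was 0.11 without ASO-L1 replicate 1. The number lower was 7 without replicate 3 of either group and 4 without all libraries of number 2, and 2 were higher without ASO-L1 replicate 2. BST2, a tether of budding virus, was at 13.1, 16.5, 17.5 and 18.7 CPM in ASO-L1 and at 55.9, 42.9, 34.7 and 33.7 in sO-L1 (log2 fold change -1.31 ± 0.14 (SE), adjusted p = 1.52e-06), without overlap. TRIM25 was lower (-0.39, adjusted p = 7.49e-05), and IFITM1 (0.33, adjusted p = 2.04e-05), IFITM3 (0.26, adjusted p = 2.74e-04) and HERC5 (0.22, adjusted p = 0.011, not called in 3 of 21 other settings) were higher by small steps. The RNA sensor IFIH1 was called higher at a low level (1.18, adjusted p = 0.0416), but not in 9 of 20 other settings. Replication and cell cycle genes were lower in 17 of 48 (35.4%, against 22.9% of all genes) and higher in 10 (20.8%, against 21.1%), with a median of -0.06. Without all libraries of replicate number 3, 6 were higher. The number lower was 12 without sO-L1 replicate 1 and 13 without the replicate block. The mitotic motors CENPE (-0.59, adjusted p = 7.99e-07) and KIF11 (-0.45, adjusted p = 4.41e-07) and the checkpoint kinase BUB1 (-0.34, adjusted p = 2.64e-05) fell, and MYBL2 rose (0.32, adjusted p = 4.53e-06).

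Markers of other cell types included genes that rose and genes that fell. In bulk RNA, fewer cells of a type and less RNA per cell cannot be told apart. Trophectoderm and amnion markers passed the filter for 13 of 27 genes, of which 4 were higher (30.8%) and 1 lower (7.69%). Their summed level was 659 to 754 CPM in ASO-L1 and 562 to 701 in sO-L1. CDX2, PSG3, PSG4 and XAGE2 had no read in any library. TEAD4 was at 100.2, 90.2, 90.7 and 83 CPM in ASO-L1 and at 58.5, 55.5, 50.5 and 50.3 in sO-L1 (log2 fold change 0.76 ± 0.05 (SE), adjusted p = 1.43e-08), and BMP4 was lower (-0.58, adjusted p = 3.41e-04). Primitive endoderm markers were higher in 3 of 10 and lower in 5, of which 3 were called without replicate 2 of ASO-L1 or replicate 3 or 4 of sO-L1. Their summed level was 1825 to 1927 CPM in ASO-L1 and 1592 to 1646 in sO-L1. PDGFRA was at 7.42, 9.19, 7.77 and 8.37 CPM in ASO-L1 and at 19, 16.8, 17.9 and 17.4 in sO-L1 (log2 fold change -1.11 ± 0.08 (SE), adjusted p = 4.27e-08). APOE (0.46, adjusted p = 5.77e-08) and FOXA2 (0.89, adjusted p = 0.0058) were higher, and the laminin gene LAMA1 (-0.18, adjusted p = 0.00406) and the collagen gene COL4A2 (-0.51, adjusted p = 3.11e-06) were lower. The fibronectin gene FN1 (-0.12, adjusted p = 0.0334) and the collagen gene COL4A1 (-0.13, adjusted p = 0.0295) were called lower, but not in 12 of 21 and 11 of 21 other settings. CER1 was at 137, 170.1, 296 and 248 CPM in ASO-L1 and at 78.5, 101, 152 and 156 in sO-L1 (log2 fold change 0.80 ± 0.05 (SE), adjusted p = 1.43e-08). CER1 followed the replicate number, with numbers 3 and 4 above 1 and 2 in both groups, and ASO-L1 was higher within every number.

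Mesoderm and primitive streak markers were higher in 3 of 7 and lower in 0, with MIXL1 at 17.5, 17.2, 29.5 and 25.1 CPM in ASO-L1 and at 13.7, 13.9, 18.4 and 18.5 in sO-L1 (0.45, adjusted p = 1.09e-04). Their summed level was 338 to 553 CPM in ASO-L1 and 280 to 373 in sO-L1, and EVX1 and CDX2 were at 0. CER1 (0.80), given above with primitive endoderm, was also the largest rise of the mesoderm list and is part of that sum. Mesoderm markers under the filter held 263 reads in ASO-L1 and 79 in sO-L1. WNT3 was called higher (0.28, adjusted p = 0.0346), but not in 9 of 21 other settings. The number higher was 5 without replicate 1 of either group or without sO-L1 replicate 4, and 1 was lower without ASO-L1 replicate 1. Neuroectoderm markers were higher in 4 of 10 and lower in 2, although the median was -0.08 (0.006 without ASO-L1 replicate 1). Their summed level was 857 to 961 CPM in ASO-L1 and 854 to 981 in sO-L1, with ZIC4 at 0. SOX3 (1.21, adjusted p = 1.44e-05) and NES (0.26, adjusted p = 5.01e-05) rose, DLK1 was called higher (0.83, adjusted p = 0.0428) but not in 13 of 20 other settings, and DCX (-0.69, adjusted p = 3.88e-06) and TUBB3 (-0.32, adjusted p = 7.62e-05) fell. Of 17 fibroblast and mesenchyme genes, 5 were higher (29.4%) and 5 lower (29.4%). The rises included SPARC (0.41, adjusted p = 7.24e-07), THY1 (0.64, adjusted p = 1.21e-07) and MMP2 (0.49, adjusted p = 2.63e-05). TWIST1 (2.77), given above with the Polycomb-held factors, was the largest of them. The 5 falls were all collagen chains, such as COL1A2 (-0.69, adjusted p = 3.11e-06). Without replicate 2 of either group or sO-L1 replicate 1, 3 were lower. LUM was at 0. Their summed level was 632 to 664 CPM in ASO-L1 and 564 to 593 in sO-L1. Blood and endothelial markers passed the filter for 4 of 15 genes and held 11.1 to 42.0 CPM in ASO-L1 and 9.65 to 24.6 in sO-L1, with HBG1 and HBE1 among those at 0. Those under the filter held 112 reads in ASO-L1 and 65 in sO-L1. KDR was the 1 called (log2 fold change 0.54, adjusted p = 0.00322), and 2 were higher without ASO-L1 replicate 4 or any 1 library of sO-L1. The part of other cell types in the differences was not tested.

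**Figure D3:**
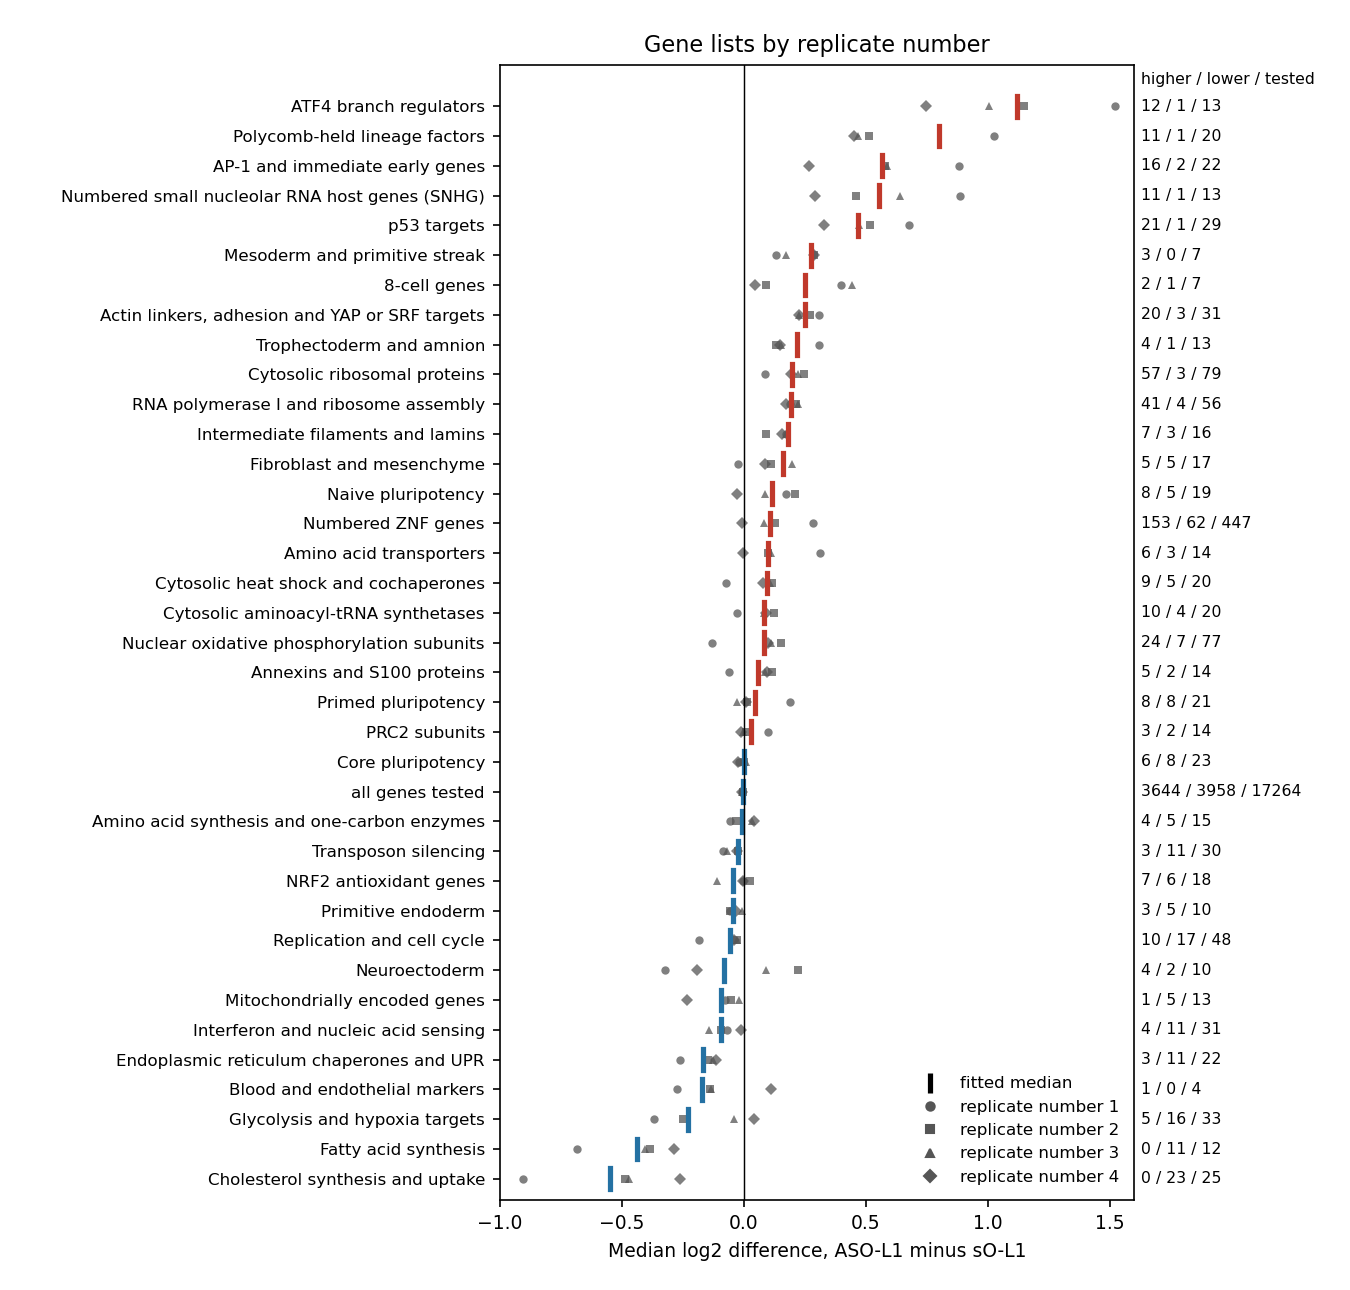
Median log2 difference of ASO-L1 minus sO-L1 for each gene list (y axis), as the fitted median (vertical bar) and within each replicate number (grey markers), with counts called higher, lower and tested on the right. ATF4 branch regulators stood highest at 1.12 and cholesterol genes lowest at -0.55, and replicate number 1 was the farthest from 0 in both.

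Long genes were lower far more often than short ones. Gene span, from start to end including introns, was taken from GENCODE 29, by symbol, for 13427 protein-coding genes tested. Among those under 10 kb, 16% were lower and 28.2% higher. The share lower was 18.9% at 10 to 20 kb, 22.5% at 20 to 50 kb, 29.1% at 50 to 100 kb, 36.2% at 100 to 200 kb and 52.8% at 200 to 500 kb. Over 500 kb, 132 of 234 genes (56.4%) were lower and 6 (2.56%) higher. The median log2 fold change went from 0.05 in the shortest class to -0.47 in the longest, and the longest class had a median of -0.66, -0.41, -0.51 and -0.33 in replicate numbers 1 to 4. Against ASO-Ctr the medians of the longest class were -0.57 for ASO-L1 and -0.07 for sO-L1, from comparisons that share libraries.

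**Figure D4:**
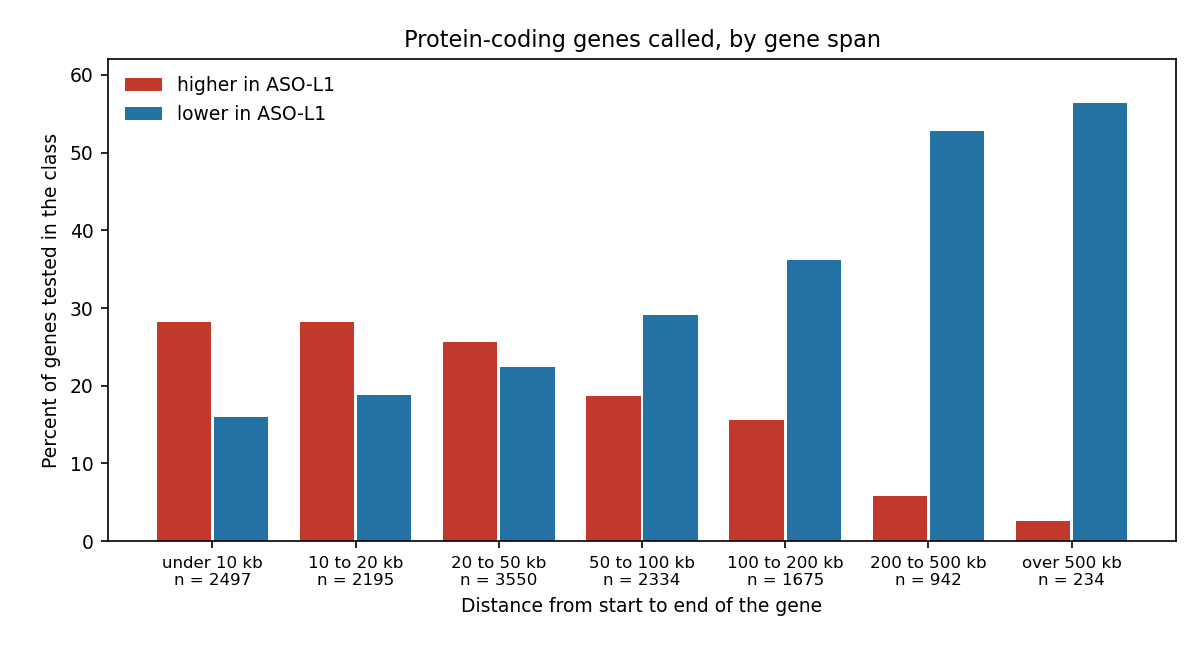
Percent of protein-coding genes called higher (red) or lower (blue) in ASO-L1 for classes of gene span, with the number tested under each class. The percent lower increased from 16 in genes under 10 kb to 56.4 in genes over 500 kb.

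The pattern was present on either side of the median transcript length and of the median level. Among genes whose longest transcript was at most the median of 3729 bases, 50.2% of those over 200 kb were lower against 17% of those under 20 kb. Among genes with longer transcripts the shares were 54.2% and 18.6%. Above the median level 68.6% against 17.2% were lower, and at or below it 45.9% against 17.4%. Without all libraries of replicate number 1, 627 genes over 200 kb were lower, against 629 with them. Examples over 500 kb, chosen after values were seen, were RYR2, the cardiac calcium release channel, at 1.62, 3.06, 2.41 and 2.43 CPM in ASO-L1 and at 4.73, 7.24, 7.03 and 5.7 in sO-L1 (log2 fold change -1.37 ± 0.13 (SE), adjusted p = 3.67e-07), SOX5, a transcription factor of cartilage and neurons, at 0.433, 0.582, 1.07 and 1.3 CPM in ASO-L1 and at 2.0, 1.78, 2.85 and 2.49 in sO-L1 (log2 fold change -1.45 ± 0.20 (SE), adjusted p = 2.52e-05), and SLC8A1, a sodium-calcium exchanger, at 0.216, 0.339, 0.206 and 0.319 CPM in ASO-L1 and at 1.0, 1.28, 1.35 and 0.458 in sO-L1 (log2 fold change -1.87 ± 0.31 (SE), adjusted p = 1.25e-04). None overlapped. RUNX1 went against the class, at 2.41, 1.77, 2.06 and 1.74 CPM in ASO-L1 and at 0.974, 0.801, 1.65 and 1.34 in sO-L1 (log2 fold change 0.78 ± 0.20 (SE), adjusted p = 0.00473). Genes of the X chromosome were lower in 181 of 506 (35.8%) and higher in 80 (15.8%). Up to 50 kb, 27.3% of X genes and 19.2% of autosomal genes were lower, and over 50 kb the shares were 50.3% and 36.4%. What accounts for the relation to span or chromosome was not tested.

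The sense oligo itself differed from ASO-Ctr in few genes. At the same threshold 50 genes (0.29%) were called between sO-L1 and ASO-Ctr, 12 higher (0.0695%) and 38 lower (0.22%), against 7652 (44.3%) between ASO-L1 and ASO-Ctr. Genes below were chosen after values were seen, and the comparisons share libraries. TMEM116, a membrane protein gene, was at 8.07, 7.15, 7.08 and 5.8 CPM in ASO-L1 and at 2.49, 3.63, 3.03 and 2.85 in sO-L1 (log2 fold change 1.21 ± 0.12 (SE), adjusted p = 6.71e-07). In ASO-Ctr it was at 6.29, 6.04, 5.26 and 5.16 CPM, above all sO-L1 libraries. Against ASO-Ctr it was lower in sO-L1 (log2 fold change -0.91 ± 0.12 (SE), adjusted p = 0.00137). MYO6, an actin motor, was at 102, 103, 91.9 and 89.5 CPM in ASO-L1 and at 62.3, 78.2, 62.4 and 64.7 in sO-L1 and at 95.6, 117, 105 and 102 in ASO-Ctr. Its log2 fold change was 0.53 against sO-L1, and against ASO-Ctr it was -0.12 ± 0.05 (SE), adjusted p = 0.0905 for ASO-L1 and -0.65 ± 0.05 (SE), adjusted p = 1.17e-05 for sO-L1. HMCN1, an extracellular matrix gene, was higher against sO-L1 (1.12, adjusted p = 0.00314) and not called for ASO-L1 against ASO-Ctr (-0.39 ± 0.24 (SE), adjusted p = 0.213).

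Both LINE1 oligos were below ASO-Ctr in 2 further genes. EDA, the ectodysplasin ligand, was at 4.54, 7.61, 6.63 and 6.26 CPM in ASO-L1 and at 4.3, 5.11, 5.12 and 5.47 in sO-L1 and at 11.6, 12.7, 12.9 and 12.6 in ASO-Ctr, -0.99 (ASO-L1) and -1.32 (sO-L1) on the log2 scale. Its call between both LINE1 oligos (0.33, adjusted p = 0.016) was absent in 6 of 21 other settings. GRIP1, a synaptic scaffold gene, was at 5.8, 7.03, 6.46 and 6.29 CPM in ASO-L1 and at 7.16, 6.39, 5.26 and 5.34 in sO-L1 and at 11.8, 12.3, 12 and 12.3 in ASO-Ctr. GRIP1 did not pass the test between ASO-L1 and sO-L1 (log2 fold change 0.09 ± 0.10 (SE), adjusted p = 0.524), although each was lower than ASO-Ctr (-0.92 and -1.0). CPLX2 and CCR8 were higher in sO-L1 than in ASO-Ctr. CPLX2, a regulator of vesicle release, was lower in ASO-L1 than in either (-1.26 against sO-L1 and -0.65 against ASO-Ctr). CCR8, a chemokine receptor, was at 2.05, 1.38, 0.928 and 1.42 CPM in ASO-L1 and at 4.44, 2.79, 2.41 and 3.57 in sO-L1 and at 2.18, 1.77, 1.35 and 2.09 in ASO-Ctr, and its fall against sO-L1 (-1.19, adjusted p = 4.94e-06) stood beside -0.38 ± 0.15 (SE), adjusted p = 0.0585 against ASO-Ctr. SPP1, osteopontin, was at 445, 373, 512 and 441 CPM in ASO-L1 and at 204, 212, 314 and 301 in sO-L1 and at 134, 152, 223 and 243 in ASO-Ctr. Its ASO-L1 libraries were the highest, and those of sO-L1 and ASO-Ctr overlapped.

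**Figure D5:**
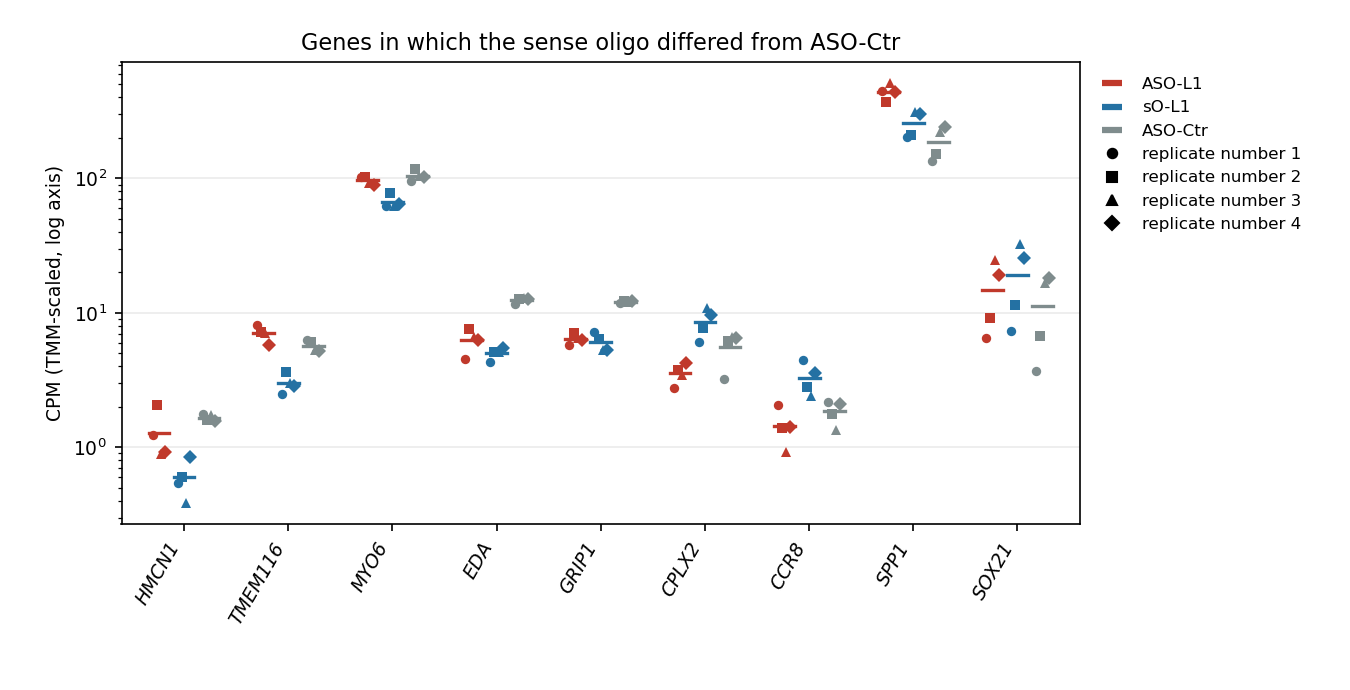
CPM per library (log axis) of 9 genes called between sO-L1 and ASO-Ctr, in ASO-L1 (red), sO-L1 (blue) and ASO-Ctr (grey), with bars for group means. TMEM116 and MYO6 were lowest in sO-L1, EDA and GRIP1 were below ASO-Ctr with both LINE1 oligos, and CCR8 was highest in sO-L1.

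The authors' deposited table of the same comparison lists 20856 genes and 6846 at an adjusted p under 0.05, of which 3354 were higher and 3492 lower. Of the 17264 genes tested here, all had an entry in the authors' deposited table, and 6564 were called in both analyses, every one in the same direction. Among the genes tested here, a further 1038 were called here only and 22 in the authors' deposited table only. The authors' deposited table also lists 3592 genes not tested here, of which 260 were called there. The median absolute difference between both log2 fold changes was 0.0048, and 113 genes differed by over 0.2. In the authors' deposited table ATF5 had a log2 fold change of 2.62 and SLC16A3 one of -1.99.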

How the data were processed

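RNA of sorted H9 cells was sequenced as directional poly(A) libraries from 80 to 130 ng of RNA, per the labels' protocols. The deposited table holds raw counts per gene after removal of duplicate reads by the authors, per the labels, which can compress the levels of abundant genes. The submitters' processing notes name hg19, TopHat2 2.0.13, Trim Galore 0.4.0 and, for counting, featureCounts from Subread 1.5.0. Which gene models were counted was not given in the sources used here. A second deposited table holds log2 normalized, batch-corrected values by the authors, and another the authors' log2 fold changes, p-values and adjusted p-values for this comparison. A moderated statistic and log odds in it, a score deposited by the authors, were not used. A spreadsheet had turned 26 symbols into dates, which were tested and not named.

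Genes were tested with edgeR 4.0.16 in R 4.3.3 (TMM, filterByExpr with a minimum count of 10, two-sided quasi-likelihood F-tests) on 12 libraries together, and the model held terms for group and for replicate number. Replicate numbers pair the libraries: deviations from the group mean correlated at 0.216 to 0.538 between ASO-L1 and sO-L1 libraries of the same number and at a median of -0.184 between others, over 10549 genes. Deviations cancel out within a group, so positive values for the same number bring negative ones for the others. The negative median is therefore no separate evidence of pairing. No 2 libraries were identical. Levels are CPM with TMM scaling, and within-number differences use log2 CPM with a prior count of 2. Limits of 3 reads cover counting error only. The script was tested on simulated data. Gene span came from GENCODE 29 (GRCh38), another build than that of the counts, matched by symbol for 14522 genes (84.1%) and used for length and chromosome only. Promoter sequences are from RefSeq. Alternatives were DESeq2 1.42.0, other scalings and filters, no block, limma 3.58.1 on the deposited log2 table, and leaving libraries out.

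The comparison, gene lists and tests were chosen with earlier results of these data known. Named genes are the 10 largest rises and falls among called genes whose average log2 CPM reached 1 and whose direction was that of every replicate number, up to 4 called members of each list by adjusted p, all members called in a direction with 5 or fewer calls, and 16 fixed genes. Other genes named, the ZNF and SNHG families and the views by span and chromosome were chosen after values were seen. Some genes that meet this rule are not reported here.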

Additional observations from a re-analysis of the deposited data

Results flagged for a closer look

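Single libraries stood apart from the other 3 of their group in 24 of 464 groups, over 232 named or listed genes, by Dixon's 95% critical value for 4 samples. Chance flags about 1 in 20 groups, which is close to the share flagged here. Of the 24, 10 were sO-L1 replicate 1, 8 ASO-L1 replicate 1, 3 sO-L1 replicate 2, and 1 each ASO-L1 replicate 4, sO-L1 replicate 3 and sO-L1 replicate 4.

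In sO-L1 replicate 1 the level was above that of the other sO-L1 libraries for the tRNA synthetase genes TARS (703 CPM against 641 to 643) and SARS (200.4 against 172 to 173), for FTL (738 against 623 to 636), GAPDH (1883 against 1613 to 1655), KRT8 (471 against 355 to 362) and APOE (776 against 654 to 672). The same held for RPL12 (494 against 443 to 449), POU5F1 (1282 against 1161 to 1166) and ATF4 (285 against 252 to 256). The widest of these gaps in relative terms was that of NLRP7, a maternal-effect gene, at 65.9 CPM against 25 to 29.

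In ASO-L1 replicate 1 the chaperone genes HSP90B1 (1119 CPM against 1601 to 1722), HSPA5 (868 against 1023 to 1039.7) and MANF (60.2 against 75.8 to 77.3) were below the other ASO-L1 libraries, as was GAPDH (1755 against 1899 to 1915). PAX6 (4.07 against 2.44 to 2.61), KRT8 (465 against 393 to 400.2), RPLP1 (961 against 878 to 884) and RPL8 (1959 against 1799 to 1822) were above them. KRT8 and GAPDH were flagged in replicate 1 of both groups.

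Replicate 2 of sO-L1 was low for ANXA3 (7.81 CPM against 12 to 12.7) and NANOG (121 against 143 to 147) and high for MYO6 (78.2 against 62.3 to 64.7). INA was high in sO-L1 replicate 3 (45.7 CPM against 40.8 to 41.2). SOX3 was low in sO-L1 replicate 4 (0.818 CPM against 1.5 to 1.69), and THY1 was low in ASO-L1 replicate 4 (64.6 CPM against 76.2 to 77.4).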

How the results depend on the processing

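The number of genes called without the replicate block was 5782, of which 2808 were higher and 2974 lower, against 7602 with it. Leaving out libraries gave 5747 to 7810 calls, 2778 to 3679 higher and 2959 to 4131 lower. Changes over 2-fold were called for 290 to 489 genes upward and 203 to 396 downward without single libraries or numbers. With a minimum count of 50 these were 174 and 118, and 412 were lower in limma on the deposited log2 table. No other setting moved the median of all genes beyond -0.02 or 0.01, and the share of calls that were higher stayed between 45.8 and 51.0%. Every scaling used brings the libraries to a common level, so these values cannot show a shift of all genes together.

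Without the block, 6 tRNA synthetases were called higher, 7 transposon silencing genes lower and 7 interferon genes lower, and 6 tRNA synthetases were called higher with only the 8 libraries compared. With a minimum count of 50, 5 Polycomb-held genes were called higher, and medians were 0.27 for intermediate filaments, 0.25 for naive genes, 0.031 for fibroblast genes and 0.54 for blood markers. Without a filter, medians were 1.21 for Polycomb-held genes, 0.16 for interferon genes, -0.014 for primitive endoderm and 0.76 for mesoderm. On the deposited log2 table, 19 Polycomb-held genes were called higher, and medians were 1.32 for that list, 0.031 for interferon, -0.091 for primitive endoderm, 0.62 for mesoderm and 0.32 for blood markers. The filters change which members are tested, and otherwise the cause was not tested.

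Without single libraries or numbers, medians ranged from -0.036 to 0.035 for core pluripotency, 0.031 to 0.29 for naive genes, -0.11 to 0.11 for interferon, 0.15 to 0.36 for trophectoderm, -0.074 to -0.013 for primitive endoderm, 0.19 to 0.47 for mesoderm, 0.047 to 0.20 for fibroblast genes and -0.17 to 0.36 for blood markers. The number called higher ranged from 6 to 10 for tRNA synthetases and from 13 to 40 for oxidative phosphorylation. Interferon genes called lower ranged from 4 to 11, and genes up to 20 kb called lower from 520 to 873. SUZ12, not called, had a log2 fold change of -0.0059 without ASO-L1 replicate 1 and -0.0011 without number 1, and ranged up to 0.071. Lists of 4 to 20 tested genes at low counts, and genes near 3 reads, limit what these libraries can show.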
